A study of Mus musculus with 28 samples.

Results

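The comparison asks which transcripts of mouse embryonic stem cells rise and fall when the medium that holds the naive state is given back after 48 h without it. It sets 4 libraries called 48 h + 2iL against 4 libraries called 48 h, chosen by the withdrawal time and re-induction named in their titles, which makes 8 of the 28 libraries of the series. E14 cells, an established line derived from a mouse blastocyst, were grown on gelatin in N2B27 medium. In the group 2iL this medium held CHIR99021 at 3 uM (an inhibitor of the kinase GSK3), PD0325901 at 1 uM (an inhibitor of the kinase MEK) and the cytokine LIF. The 48 h cells had been without all 3 agents for 48 h, and the 48 h + 2iL cells had been without them for 48 h and were then returned to them for 24 h. The groups 2iL (never withdrawn), 96 h (withdrawn for 96 h) and 96 h + 2iL (96 h, then 24 h of 2iL), with 4 libraries each, serve as references. The 48 h + 2iL cells were harvested 24 h later than the 48 h cells. No group withdrawn for 72 h is analysed here, so the 24 h of further culture and the return of 2iL cannot be told apart, and the 96 h levels show what longer withdrawal alone gave. Each group holds 1 library from each of experiments 1 to 4. The labels do not say whether these are separate cultures, so a p-value measures the spread between these libraries, which may be technical.

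GSK3 marks β-catenin for destruction, and its inhibition lets β-catenin act with TCF factors on WNT target genes, among them factors of the posterior embryo. MEK activates ERK, the kinase through which FGF moves embryonic stem cells out of the naive state towards the formative epiblast, and LIF acts through STAT3 on naive genes. Naive cells resemble the epiblast of the blastocyst, and formative cells that of the egg cylinder shortly after implantation.

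RNA with a polyA tail was read from its 3′ end, so levels are given as CPM (gene counts scaled to a fixed total per library) after TMM scaling, a correction for differences in RNA composition. Gene counts per library were 1671969 to 2161363 at 48 h and 2043207 to 2419846 in 48 h + 2iL. Embryonic stem cell genes were present in both groups, with Sox2 at 369.7 to 419 and 552 to 619 CPM and Sall4 at 283 to 336 and 201 to 265 CPM. Pou5f1, at 19.5 to 43.0 and 24.9 to 30.3 CPM, has close copies in the genome, so its level is uncertain. Reads recorded as fitting several places made up 57.8% to 60.1% of reads at 48 h and 54.9% to 56.4% in 48 h + 2iL, without overlap, and their part in the results was not tested. Replicates differed by more than sampling noise (chi-square of 2.39 to 5.81 per gene in 12 pairs), and 0 pairs of libraries were identical.

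Tfcp2l1, Sp5 and Lefty1, which mark the effect of 2iL here, all rose when it was returned. Tfcp2l1 (chr1:118627945-118685168, GRCm38, as are all gene positions here) encodes a transcription factor of the naive state that STAT3 activates. In experiments 1 to 4, the order kept throughout, it read 18.1, 20.7, 11 and 23.3 CPM at 48 h and 371, 404, 342 and 375 CPM in 48 h + 2iL. Every returned library stood above every withdrawn library, of 48 h and of 96 h (8.09 to 17 CPM), and below every 2iL library (485 to 639 CPM). The log2 fold change over 48 h was 4.36 ± 0.29 (standard error, SE, adjusted p = 8.29e-13). All adjusted p-values are from edgeR's quasi-likelihood test with Benjamini-Hochberg adjustment over the 11080 genes tested, with the experiment number as a block. A gene is said to have risen or fallen where this p is under 0.05.

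Sp5 (chr2:70474923-70477729) encodes a zinc-finger factor that β-catenin induces directly in many cell types. It read 1.56, 0.987, 3.05 and 1.84 CPM at 48 h and 130.4, 148, 229 and 184.3 CPM in 48 h + 2iL, a log2 fold change of 6.52 ± 0.57 (adjusted p = 2.74e-10). The returned libraries lay above those of 48 h and of 96 h (0.459 to 33.6 CPM) and overlapped those of 2iL (99.5 to 141 CPM). Lefty1 (chr1:180935022-180938400), a secreted inhibitor of NODAL, read 2.59, 1.48, 1.22 and 3.68 CPM at 48 h and 111, 78.6, 115 and 53.1 CPM in 48 h + 2iL, a log2 fold change of 5.42 ± 0.61 (adjusted p = 3.92e-08). For Lefty1 every returned library was above every 2iL library (5.80, 33.1, 13.5 and 39.2 CPM), as for 8.4% of tested genes, and the level exceeded that of 2iL by 2.07 ± 0.44 on the log2 scale (adjusted p = 0.00107).

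Promoter sequences are shown for 3 risen genes listed as WNT targets, Sp5, T and Sp8, chosen because each holds a word that TCF factors are known to bind. The RefSeq table (GRCm38.p6) gives 250 bases before to 50 bases after the start of a gene. All 3 are on the plus strand, at chr2:70474673-70474972 for Sp5, chr17:8434173-8434472 for T and chr12:118846983-118847282 for Sp8. For Sp8 3 promoters are listed, and the only 1 with a match is shown. No GENCODE transcript of Sp8 held the bases right after this start, whereas 1 transcript did so for each of Sp5 and T. Capitals mark CTTTGAT or CTTTGAA on either strand.
Sp5: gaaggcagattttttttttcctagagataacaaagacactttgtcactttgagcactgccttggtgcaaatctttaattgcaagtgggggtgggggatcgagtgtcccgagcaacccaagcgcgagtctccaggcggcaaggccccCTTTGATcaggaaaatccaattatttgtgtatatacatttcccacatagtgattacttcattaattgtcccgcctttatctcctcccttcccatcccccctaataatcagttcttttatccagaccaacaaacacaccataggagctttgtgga
T: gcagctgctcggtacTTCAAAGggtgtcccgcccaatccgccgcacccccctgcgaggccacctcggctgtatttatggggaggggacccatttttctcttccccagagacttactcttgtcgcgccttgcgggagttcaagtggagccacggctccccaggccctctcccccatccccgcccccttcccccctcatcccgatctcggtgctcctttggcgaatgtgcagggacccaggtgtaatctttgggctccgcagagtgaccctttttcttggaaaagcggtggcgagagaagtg
Sp8: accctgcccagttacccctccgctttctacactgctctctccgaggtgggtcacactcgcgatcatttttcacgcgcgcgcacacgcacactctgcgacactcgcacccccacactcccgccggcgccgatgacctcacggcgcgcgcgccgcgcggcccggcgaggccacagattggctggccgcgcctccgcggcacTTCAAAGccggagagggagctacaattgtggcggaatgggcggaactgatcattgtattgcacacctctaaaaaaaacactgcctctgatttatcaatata
In Sp5 the word CTTTGAT begins 104 bases before the start on the printed strand. In T and Sp8 the word CTTTGAA lies on the other strand, printed as TTCAAAG, and begins 235 and 51 bases before the start. A match of this kind describes the letters and does not show binding. Of the 8903 tested genes with a promoter in the table (80.4% of those tested), 6.95% held 1 of the 2 words, and of the 750 risen genes with one (80.7% of the 929 that rose) 8.93% did, without a test. Of the 1012 fallen genes 79.9% had a promoter in the table, which is under 80%, so the check is void for them. Counted per promoter and not per gene, 8.65% of all 32851 promoters held 1 of the words. Cdx2, Axin2, Nkd1, Wnt3 and Tfcp2l1 had no match in this window.

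**Figure D1:**
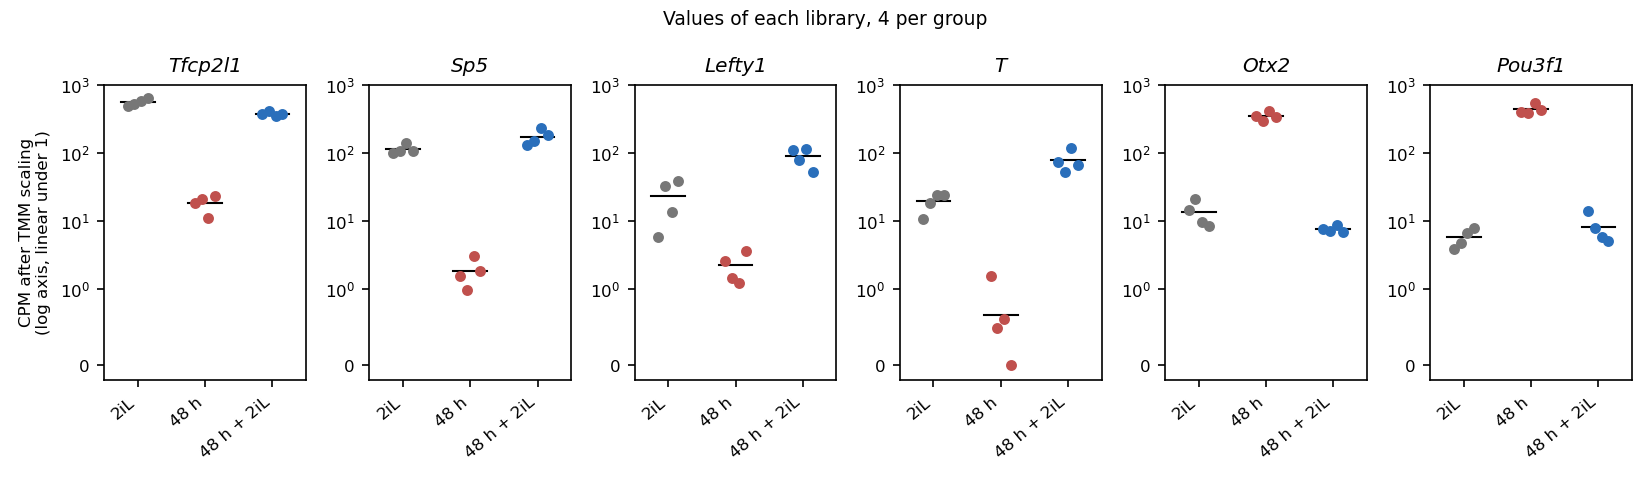
CPM after TMM scaling (log axis, linear under 1) of Tfcp2l1, Sp5, Lefty1, T, Otx2 and Pou3f1 in 2iL, 48 h and 48 h + 2iL, with 1 point per library and a bar at the mean of 4. The libraries of 48 h + 2iL stand above those of 48 h for the first 4 genes and below them for Otx2 and Pou3f1, and for Lefty1 and T they also stand above those of 2iL.

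Across all genes 929 rose (8.38% of those tested) and 1012 fell (9.13%), 1941 in all (17.5%), and 181 risen and 189 fallen genes moved at least 4-fold. The median log2 fold change was -0.001. Of all tested genes, 10.1% had every 48 h + 2iL library above every 48 h library, and 10.9% had every one below. Of the risen genes, 417 stood above every library of both 48 h and 96 h (44.9% of the risen), and 369 of the fallen stood below all of them (36.5%). Over all tested genes these shares were 4.72% and 4.14%. The risen and fallen genes were picked by comparison with the same 48 h libraries, so their larger shares are in part built in. In bulk RNA, fewer cells of a type and less RNA per cell cannot be told apart. The 31 gene lists, each a pathway or cell type, hold 475 genes, of which 380 could be tested, 69 rose and 74 fell. Where none of a list is said to have risen or fallen, DESeq2 called 0 as well, and none had an unadjusted p under 0.05 in that direction except 2 genes of the LIF list and 1 of the NODAL list.

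**Figure D2:**
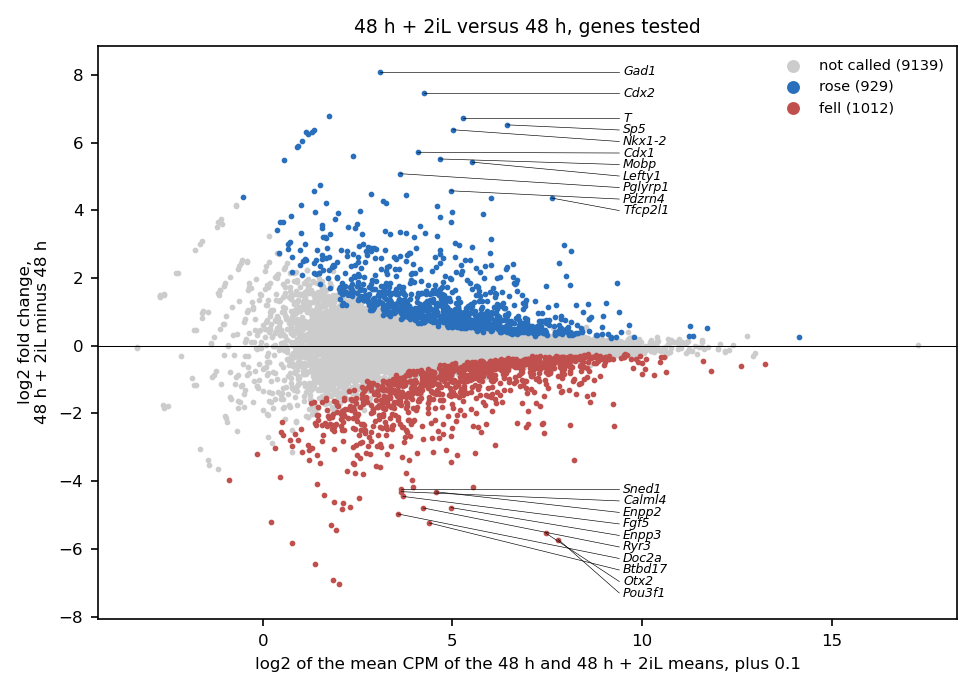
Log2 fold change of 48 h + 2iL over 48 h (vertical) against the mean level of each of the 11080 tested genes (horizontal, log2 of CPM + 0.1), with risen genes in blue, fallen genes in red and the largest changes labelled. Labelled rises lie between 4.36 (Tfcp2l1) and 8.10 (Gad1, whose fitted value depends on a count of 0 at 48 h), and labelled falls between -5.72 (Pou3f1) and -4.24 (Sned1).

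**Figure D3:**
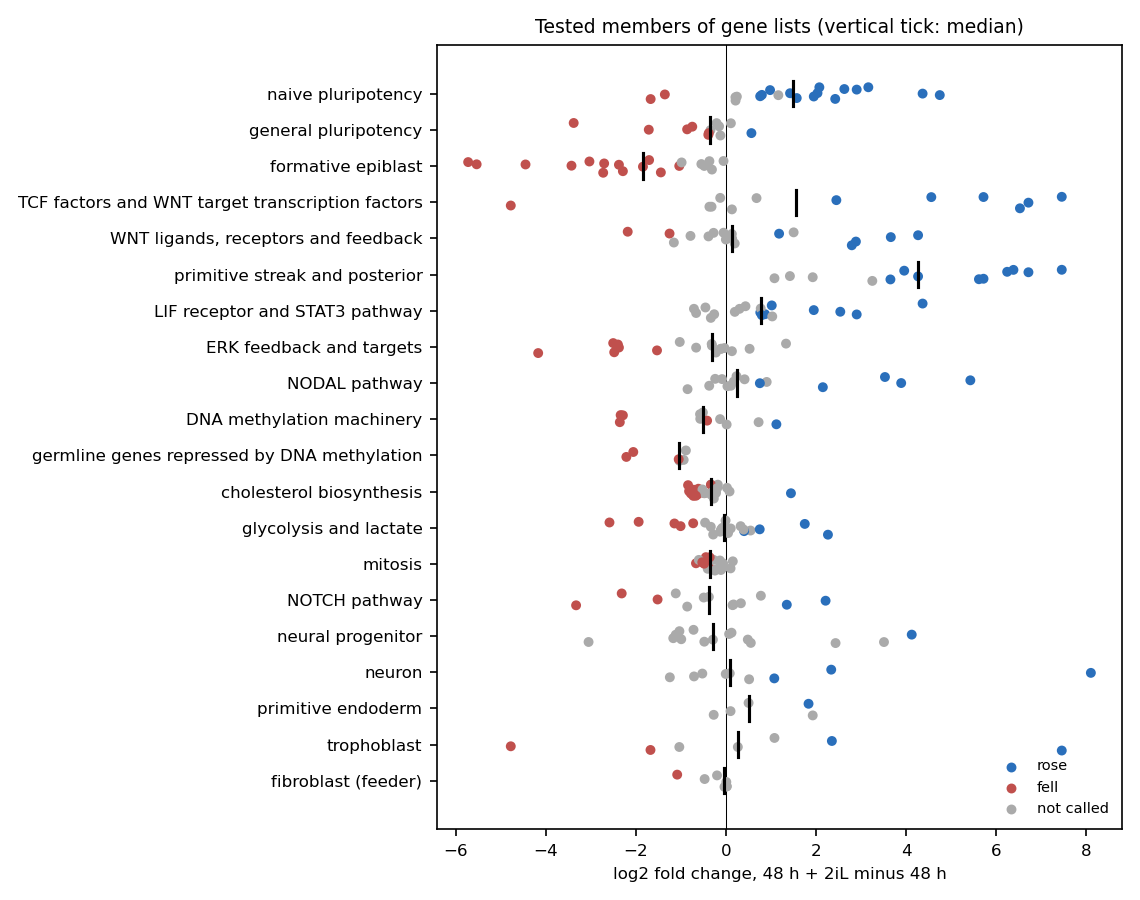
Log2 fold change of 48 h + 2iL over 48 h for the tested members of 20 gene lists, 1 point per gene, coloured by whether it rose, fell or was not called, with a tick at the median. The medians of the primitive streak list (4.26), the TCF list (1.56) and the naive list (1.49) lie highest and that of the formative list (-1.85) lowest.

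Several transcription factors that act below β-catenin rose, as did some feedback genes of the WNT pathway. Of 12 tested TCF factors and WNT target factors (14 listed), 6 rose and 1 fell, against 8.38% and 9.13% of all genes tested, with a median log2 fold change of 1.56. The number that fell was 2 without the 48 h + 2iL library of experiment 3 or in a fit of the 8 libraries alone. Axin2, a scaffold of the destruction complex and feedback inhibitor, read 5.70, 4.44, 3.05 and 3.68 CPM at 48 h and 31.3, 45.8, 86.4 and 67.0 CPM in 48 h + 2iL. All 4 returned libraries were higher, though the lowest of them lay within the 96 h range (5.5 to 32.3 CPM), and the log2 fold change was 3.66 ± 0.34 (adjusted p = 1.08e-09). Tnfrsf19, a receptor induced by β-catenin, rose from 7.70 ± 3.72 to 42.8 ± 18.8 CPM (mean ± SD, n = 4, log2 change 2.45 ± 0.32, adjusted p = 6.66e-07). Sp8, a relative of Sp5, had 1 count over the 4 libraries of 48 h and 42 over those of 48 h + 2iL, a ratio of pooled CPM of 34 (exact 95% interval 5.79 to 1376), which covers counting error only. Its 96 h range of 2.43 to 21.4 CPM enclosed the returned libraries at 2.52 to 7.07 CPM. Ascl2, a WNT target of intestinal stem cells, fell instead, from 3.11, 10.4, 9.16 and 14.1 CPM to 1.52, 0, 0 and 0 CPM. Its 65 counts at 48 h became 3, a pooled ratio of 26.7 (exact 95% interval 8.75 to 133) downward (adjusted p = 5.18e-05). Lef1, a TCF family factor, spread widely after the return, at 76.3, 77.4, 185 and 139.6 CPM against 149, 134, 156 and 158 CPM at 48 h, and was not called (log2 change -0.37 ± 0.18, adjusted p = 0.165). It fell without the 48 h + 2iL library of experiment 3 (adjusted p = 0.0241) and in a fit of the 8 libraries alone (adjusted p = 0.0188).

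Of 17 tested WNT ligands, receptors and feedback genes (27 listed), 5 rose and 2 fell. Without the 48 h library of experiment 4, 8 rose, and the number that fell was 1 without the replicate block or without any single library of 4 (48 h of experiments 1 and 4, 48 h + 2iL of experiments 2 and 3). Wnt3, a ligand that starts the primitive streak, went from 1.04, 0.987, 0 and 1.23 CPM to 16.2, 22.7, 14.1 and 14.4 CPM. These groups did not overlap, the log2 fold change was 4.26 ± 0.66 (adjusted p = 1.62e-05), and the level exceeded that of 2iL (1.45 to 5.68 CPM) by 2.19 ± 0.51 (adjusted p = 0.00325). Nkd1, a feedback inhibitor that binds Dishevelled, rose from 0.987 to 2.07 to 7.15 to 20.4 CPM (log2 change 2.79 ± 0.49, adjusted p = 7.48e-05). Its level was above 2iL by 2.31 ± 0.43 (adjusted p = 0.00026), and its returned libraries overlapped the 96 h range of 7.80 to 40.6 CPM. Sfrp1, a secreted WNT antagonist, rose from 25.9 ± 3.70 to 58.7 ± 15.7 CPM (log2 change 1.18 ± 0.23, adjusted p = 0.000333) and stayed below 2iL (219 ± 33.7 CPM) by a log2 difference of -1.90 ± 0.20 (adjusted p = 2.28e-08). Fzd7, a WNT receptor, fell from 39.4, 34.1, 37.8 and 41.1 CPM to 5.56, 7.57, 11.2 and 8.84 CPM. All 4 libraries fell below the 48 h and 96 h ranges, and the log2 change was -2.18 ± 0.31 (adjusted p = 2.76e-06).

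Factors of the primitive streak and the posterior embryo had the highest median log2 fold change of the 31 lists, 4.26, with 9 of 13 tested members risen (23 listed) and none fallen. The 23 listed members summed to only 8.59 to 15.6 CPM at 48 h. Members near 0 there passed the filter only through another group and could hardly fall. The high median and the lack of falls thus follow in part from the filter. In a fit of the 8 libraries alone 5 rose. T (brachyury), the T-box factor of the streak and axial mesoderm, read 1.56, 0.494, 0.61 and 0 CPM at 48 h and 72.3, 51.7, 119 and 66.6 CPM in 48 h + 2iL. No library overlapped, and the log2 fold change was 6.71 ± 0.88 (adjusted p = 6.5e-07). Nkx1-2, a homeobox gene of the caudal epiblast, read 0, 0.494, 0.61 and 1.84 CPM and then 43.0, 36.6, 113 and 62.8 CPM, highest in experiment 3 (log2 change 6.38 ± 0.70, adjusted p = 2.36e-08). Both exceeded 2iL (T 10.6 to 24.4 CPM, Nkx1-2 18.7 to 28.5 CPM), with adjusted p = 0.00779 and 0.0108. Without the 48 h + 2iL library of experiment 3 neither passed, at adjusted p = 0.0956 for T and 0.149 for Nkx1-2, and neither passed with DESeq2 (0.0872 and 0.0866). The caudal factors Cdx1 and Cdx2 pattern the posterior axis. Cdx1 rose from 1.04, 0.494, 0.61 and 0 CPM to 16.7, 33.2, 42.0 and 41.0 CPM (log2 change 5.71 ± 0.66, adjusted p = 6.51e-08). Cdx2 had 1 count at 48 h and 343 in 48 h + 2iL, where its libraries read 11.1, 24.0, 68.2 and 46.5 CPM. The libraries of both genes lay above all of 48 h and 96 h.

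Hoxb1, a homeobox gene expressed early in the streak, rose as well, from 1 count to 89, a pooled ratio of 72.1 (exact 95% interval 12.6 to 2881) (adjusted p = 0.000157), and its libraries read 4.04, 4.21, 12.5 and 19.1 CPM. The streak also makes mesoderm and endoderm, and genes of those fates stayed near 0 after the return. Msgn1 had 0 counts over both groups, Tbx6 2 and 3, Mesp1 2 and 2, and Sox17 0 and 2. Eomes, a T-box factor of the streak and endoderm, read 1.04, 1.48, 2.44 and 0 CPM at 48 h and 5.56, 4.63, 0.416 and 0.465 CPM after the return and was not called (adjusted p = 0.41).

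Of 18 tested genes of the LIF pathway (21 listed) 8 rose and none fell by edgeR, with a median log2 fold change of 0.76, and 1 fell with no filter on low counts or in a fit of the 8 libraries alone. Bcl3, an IκB family protein that STAT3 induces in embryonic stem cells, read 8.81, 13.8, 7.94 and 16.6 CPM and then 59.1, 84.9, 53.2 and 74.5 CPM. All returned libraries lay above 48 h and 96 h and below 2iL (87.0 to 101 CPM), and the log2 fold change over 48 h was 2.54 ± 0.28 (adjusted p = 3.2e-08). Pim1, a survival kinase and STAT3 target, rose from 32.2 ± 7.14 to 65.1 ± 14.7 CPM (log2 change 1.01 ± 0.22, adjusted p = 0.00105) and remained below 2iL, at 127 ± 16.2 CPM, by a log2 difference of -0.96 ± 0.20 (adjusted p = 0.00094). Stat3 itself, whose product also drives its own gene, rose by 0.76 ± 0.18 on the log2 scale (adjusted p = 0.0032), with libraries of 51.8 to 85.9 CPM at 48 h and 84.9 to 128 CPM after the return that overlapped. Socs3, the feedback inhibitor of the LIF receptor, was not called, at 11.4, 4.94, 15.9 and 26.4 CPM and 21.2, 18.1, 26.2 and 29.3 CPM (log2 change 0.77 ± 0.31, adjusted p = 0.0896). It rose without the 48 h library of experiment 4 (adjusted p = 0.00735) and in a fit of the 8 libraries alone (adjusted p = 0.017).

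Some negative feedback genes of ERK fell. Of 17 tested members (21 listed) 6 fell and none rose, with a median log2 fold change of -0.32. Dusp4 and Dusp6 encode phosphatases that switch ERK off. Dusp4 went from 104, 128, 73.3 and 46.6 CPM to 3.54, 4.63, 4.99 and 5.59 CPM, and Dusp6 from 36.3, 34.1, 47.0 and 47.8 CPM to 6.57, 7.57, 9.14 and 5.59 CPM. Neither gene's groups overlapped, and the log2 fold changes were -4.17 ± 0.35 (adjusted p = 1.69e-10) and -2.51 ± 0.28 (adjusted p = 3.62e-08). Dusp5 (-1.53 ± 0.39, adjusted p = 0.00511) and the receptor signalling inhibitor Spry4 (-2.48 ± 0.51, adjusted p = 0.000578) fell as well, Spry4 to 0 in the library of experiment 3. The ETS factors that read out FGF divided. Etv4 fell from 77.7 ± 30.2 to 14.9 ± 8.26 CPM (log2 change -2.38 ± 0.31, adjusted p = 6.14e-07), below its 2iL level of 51.7 ± 18.7 CPM by -1.77 ± 0.31 (adjusted p = 0.000138), and Etv1 fell by a log2 change of -2.40 ± 0.42 (adjusted p = 7.39e-05). Etv5 read 293, 313, 293 and 304 CPM and 229, 226, 234 and 275 CPM, lower in every returned library but not called (-0.31 ± 0.25, adjusted p = 0.434), and it fell in a fit of the 8 libraries alone (adjusted p = 0.00559). Spry2 was not called, at 79.0 ± 12.4 and 63.6 ± 13.8 CPM (adjusted p = 0.254).

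Most naive pluripotency genes rose. Of 20 members, all tested, 14 rose and 2 fell, with a median log2 fold change of 1.49. Of the risen, 13 stood above every library of both 48 h and 96 h, and of the fallen 0 stood below all of them. Esrrb, an orphan nuclear receptor that GSK3 inhibition relieves from repression by Tcf7l1, read 25.9, 32.6, 28.1 and 35 CPM and then 191, 152, 153 and 157 CPM, back inside the 2iL range of 161 to 223 CPM for 1 library and just below it for 3 (log2 change 2.42 ± 0.28, adjusted p = 4.94e-08). Klf2, a Krüppel-like factor of the naive network, went from 93.8, 110.1, 80.0 and 112 CPM to 459.5, 458, 374 and 369 CPM. Each of its returned libraries exceeded each 2iL library (277 to 333 CPM), but that difference, 0.44 ± 0.26, did not pass (adjusted p = 0.288). Nr5a2, a nuclear receptor that activates Pou5f1, rose by 2.03 ± 0.29 (adjusted p = 3.73e-06) from 37.8 ± 8.19 to 154 ± 31.8 CPM, against 151 ± 24.0 CPM in 2iL. Prdm14, which restrains FGF signalling and DNA methylation, had 1 count at 48 h and 48 after the return, a pooled ratio of 38.9 (exact 95% interval 6.66 to 1568).

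Other naive genes rose only part of the way to the level of 2iL. Klf4, a STAT3 target, read 43.0, 32.6, 26.9 and 69.3 CPM, then 138, 172, 138 and 207 CPM, against 317, 413, 385 and 404 CPM in 2iL. The 3 groups did not overlap, with log2 differences of 1.95 ± 0.24 over 48 h (adjusted p = 2.07e-07) and -1.23 ± 0.21 against 2iL (adjusted p = 0.000105). Tbx3, a T-box factor of the naive state, rose from 9.34 ± 2.86 to 56.9 ± 11.7 CPM, against 162 ± 25.4 CPM in 2iL, a difference of -1.5 ± 0.24 from 2iL (adjusted p = 3.17e-05). Tcl1, an AKT co-activator, rose by 0.76 ± 0.21 (adjusted p = 0.0116) with libraries that overlapped (18.9 to 28 and 21.6 to 53.5 CPM), far below 2iL at 172 to 186 CPM. That rise did not pass without the 48 h library of experiment 2 (adjusted p = 0.0628) or the 48 h + 2iL library of experiment 2 (0.0684) or 4 (0.0546). Spic, an ETS factor found in 2i culture, was not called against 48 h (5.63 ± 3.41 and 6.20 ± 3.69 CPM, adjusted p = 0.864) and stood below 2iL by -2.11 ± 0.53 (adjusted p = 0.00523). Zfp42 (Rex1) rose by 0.98 ± 0.27 (adjusted p = 0.0084), a call lost without the replicate block (adjusted p = 0.0511) and with DESeq2 (0.0792). Gbx2, a homeobox gene that both LIF and GSK3 inhibition induce, ended above 2iL by 1.45 ± 0.31 (adjusted p = 0.00134), at 22.7, 20.6, 38.2 and 34 CPM against 17.4, 6.87, 10.5 and 7.95 CPM. Dppa2 and Dppa4, chromatin proteins that act as a pair, fell from 46.4 ± 4.24 to 18.3 ± 4.70 CPM and from 602 ± 47.5 to 193 ± 19.5 CPM (log2 fold changes -1.36 ± 0.30 and -1.67 ± 0.29, adjusted p = 0.00108 and 4.99e-05), near their 2iL levels of 23.1 ± 5.82 and 165 ± 26.2 CPM.

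**Figure D4:**
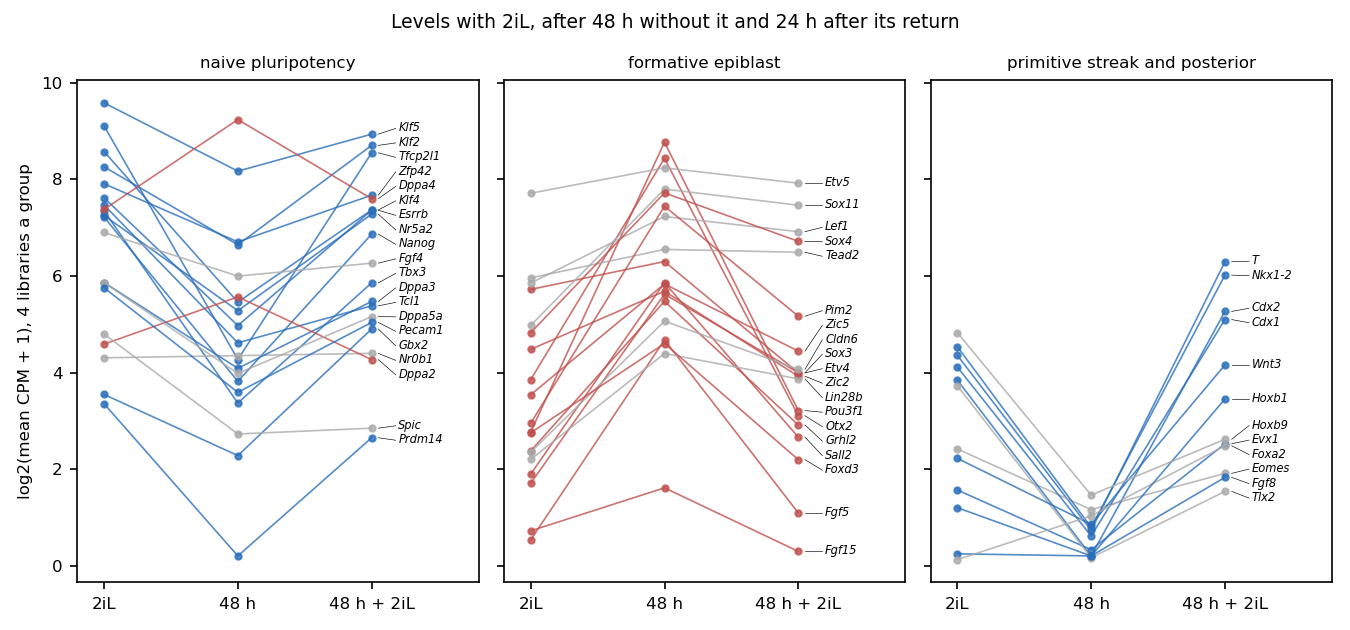
Mean level (log2 of mean CPM + 1, n = 4 libraries per group) in 2iL, 48 h and 48 h + 2iL of tested genes of the naive, formative and primitive streak lists, 1 line per gene, blue where it rose over 48 h, red where it fell and grey where it was not called. Most naive lines dip at 48 h, formative lines peak there, and T and Nkx1-2 end above their 2iL levels.

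Most formative epiblast genes fell, 13 of 19 members with none risen and a median log2 fold change of -1.85. Otx2, the homeobox factor that directs the exit from the naive state, read 343, 294, 408 and 334 CPM at 48 h and 7.58, 7.15, 8.73 and 6.98 CPM in 48 h + 2iL. Pou3f1 (Oct6), a POU factor of the same step, read 401, 383, 537 and 419 CPM and then 14.2, 7.99, 5.82 and 5.12 CPM. For both genes the returned libraries lay below all withdrawn ones and within or near the 2iL range (8.52 to 21 and 3.86 to 7.95 CPM), with log2 fold changes of -5.54 ± 0.42 (adjusted p = 1.22e-11) and -5.72 ± 0.47 (adjusted p = 9.85e-11). Fgf5, a growth factor of the epiblast after implantation, fell from 27, 10.9, 42.7 and 17.8 CPM to 1.52, 1.26, 0.831 and 0.931 CPM. Sall2, Foxd3 and Grhl2, transcription factors of this stage, fell by log2 changes of -3.43 ± 0.35, -2.71 ± 0.48 and -2.73 ± 0.40, with adjusted p = 7.65e-09, 9.51e-05 and 4.84e-06. None of these 6 genes differed from 2iL at the threshold.

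A second set of formative genes fell and yet stayed above 2iL. Sox3, a SOXB1 factor, read 49.3, 40.5, 63.5 and 39.9 CPM, then 14.7, 8.41, 19.1 and 17.7 CPM, against 0, 1.72, 3.38 and 3.97 CPM in 2iL. The 3 groups did not overlap, with log2 differences of -1.71 ± 0.22 over 48 h (adjusted p = 6.14e-07) and 2.71 ± 0.35 over 2iL (adjusted p = 8.68e-07). Pim2, a kinase of the Pim family, went from 173 ± 23.4 to 34.9 ± 14.2 CPM, against 6.74 ± 3.26 CPM in 2iL (2.31 ± 0.50 over 2iL, adjusted p = 0.00132). Sox4 fell by -1.04 ± 0.15 (adjusted p = 3.37e-06) and exceeded 2iL by 1.89 ± 0.17 (adjusted p = 1.16e-09). Lin28b, which blocks let-7 processing, was not called against 48 h (-0.55 ± 0.24, adjusted p = 0.121) and exceeded 2iL by 1.96 ± 0.31 (adjusted p = 2.89e-05).

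Among 12 general pluripotency genes, 1 rose and 6 fell, with a median log2 fold change of -0.37. The risen gene stood above every library of both 48 h and 96 h, whereas only 1 of the 6 fallen stood below all of them. The risen gene was Sox2, the partner of OCT4, at 369.7, 419, 380.3 and 406 CPM and then 552, 619, 597 and 560.0 CPM, without overlap (0.56 ± 0.11, adjusted p = 0.000332). Utf1, a chromatin factor of pluripotent cells, fell from 556, 540.1, 477 and 564 CPM to 74.3, 61.8, 38.6 and 43.8 CPM (-3.38 ± 0.33, adjusted p = 2.21e-09), the steepest fall in this list, and its returned libraries overlapped those of 2iL (63.4 ± 24.6 CPM). L1td1, an RNA-binding protein derived from a LINE-1 element, fell from 892 ± 48.4 to 303 ± 124 CPM (adjusted p = 0.000277). Lin28a fell by -0.75 ± 0.15 (adjusted p = 0.000483) and stayed above 2iL by 1.25 ± 0.16 (adjusted p = 9.4e-07).

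The 3 genes of de novo DNA methylation fell together. Dnmt3a read 406, 385, 553 and 492 CPM and then 84.4, 73.2, 110.1 and 94.0 CPM, Dnmt3b 1037, 865, 1181 and 1025 CPM and then 193, 157, 231 and 219 CPM, and Dnmt3l, their cofactor without catalytic activity, 288, 322, 202 and 294 CPM and then 70.3, 73.2, 42.0 and 47.9 CPM. No groups overlapped, and the log2 fold changes were -2.34 ± 0.20, -2.36 ± 0.29 and -2.29 ± 0.24 (adjusted p = 1.69e-10, 2.6e-07 and 1.07e-08). Dnmt3a remained above 2iL (30.9, 27.5, 33.1 and 31.8 CPM) by 1.55 ± 0.22 (adjusted p = 7.42e-06). Dnmt3b was above 2iL as well, by 1.12 (adjusted p = 0.0102), but did not pass without the 48 h + 2iL library of experiment 3 (adjusted p = 0.0723). Dnmt1, the maintenance enzyme, was not called, at 256 ± 18.3 and 258 ± 16.4 CPM (0.01 ± 0.10, adjusted p = 0.951). Over the list of DNA methylation genes 4 of 11 tested fell and 1 rose (12 listed), and the risen count was 0 without the replicate block or without any single library of 4 (48 h of experiments 2 and 3, 48 h + 2iL of experiments 1 and 2). Germline genes whose promoters this methylation silences were seldom expressed, with 6 of 17 tested, 3 fallen and none risen, and 5 fell without the 48 h + 2iL library of experiment 2. Rpl10l, a testis ribosomal protein, fell from 127, 121, 179 and 226 CPM to 72.8, 72.8, 58.2 and 110.3 CPM (adjusted p = 0.00143) and lay below 2iL (175 ± 23.6 CPM, adjusted p = 0.0006). Dazl, a germ cell RNA-binding protein, was not called against 48 h (6.94 ± 3.24 and 3.43 ± 1.74 CPM, adjusted p = 0.125) and stood below 2iL (29.0, 21.9, 53.4 and 60.2 CPM) by -3.55 ± 0.40 (adjusted p = 1.08e-07).

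The NODAL pathway inhibitors Lefty1, Lefty2 and Smad7 and the convertase genes Furin and Pcsk6 rose while the ligand Nodal was not called. Of 15 tested NODAL pathway genes (18 listed) 5 rose and none fell, with 1 fallen if experiment 1 or 2 of 48 h was left out or no filter on low counts was used, and 2 in a fit of the 8 libraries alone. Nodal read 17.1, 13.8, 7.94 and 19.6 CPM and 21.7, 16.4, 9.97 and 11.2 CPM (0.03 ± 0.41, adjusted p = 0.975). Lefty2, a NODAL inhibitor beside Lefty1 in the genome, rose from 8.30, 5.92, 4.27 and 10.4 CPM to 133, 154, 78.1 and 51.2 CPM (3.89 ± 0.54, adjusted p = 1.96e-06). Unlike Lefty1 its returned libraries overlapped those of 2iL, which read 40.1, 221, 52.2 and 270.3 CPM. Smad7, the inhibitory SMAD, went from 2.8 ± 1.88 to 32.2 ± 7.86 CPM (3.53 ± 0.47, adjusted p = 1.06e-06), and Pcsk6, a convertase that matures NODAL, from 5.53 ± 1.63 to 24.5 ± 3.00 CPM (2.15 ± 0.29, adjusted p = 1.28e-06). In the BMP list, 2 of 12 tested genes rose and 1 fell. The ligand Bmp7 (2.13 ± 0.43, adjusted p = 0.000447) and the helix-loop-helix inhibitor Id4 (2.26 ± 0.47, adjusted p = 0.000596) rose, whereas Id2 of the same family fell from 25.4, 30.6, 21.4 and 23.9 CPM to 6.07, 9.25, 9.56 and 14.9 CPM (-1.40 ± 0.36, adjusted p = 0.00557).

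The glucose carrier genes Slc2a1 and Slc2a3 moved in opposite directions. Of 22 genes of glycolysis and lactate, 4 rose and 5 fell, with a median log2 fold change of -0.06. Slc2a1 (GLUT1), the glucose carrier of most cells, read 194, 164, 235 and 214 CPM and then 52.6, 60.6, 39.9 and 55.4 CPM, while Slc2a3 (GLUT3), a carrier of higher affinity, read 25.4, 22.7, 31.7 and 38.6 CPM and then 115, 143, 149 and 156 CPM. The groups of neither gene overlapped, with log2 fold changes of -1.94 ± 0.14 (adjusted p = 1.22e-11) and 2.26 ± 0.26 (adjusted p = 4.96e-08). Slc2a3 at 96 h, without any return, was already at 80.0 to 198 CPM. Slc16a3 (MCT4), a lactate exporter, fell from 292, 281, 306 and 286 CPM to 39.9, 52.1, 47.4 and 55.9 CPM (-2.59 ± 0.22, adjusted p = 1.69e-10) and stayed above 2iL by 1.95 ± 0.28 (adjusted p = 5.21e-06). Pdk1, which keeps pyruvate out of mitochondria, fell by -1.15 ± 0.25 (adjusted p = 0.000922), and Gpi1 rose by 0.40 ± 0.10 (adjusted p = 0.00477). Hk2 (hexokinase 2) was not called (226 ± 24.6 and 224 ± 30.1 CPM, adjusted p = 0.964) and remained below 2iL by -0.70 ± 0.11 (adjusted p = 1.96e-05).

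Of 23 tested cholesterol synthesis genes (24 listed) 10 fell and 1 rose, with a median log2 fold change of -0.34. Sqle, the squalene epoxidase, read 165, 188, 172 and 171 CPM and then 85.4, 98.4, 86.4 and 118 CPM (-0.84 ± 0.12, adjusted p = 3.36e-06), with no overlap. Hmgcs1, at the head of the pathway, fell by -0.48 ± 0.12 (adjusted p = 0.00352) with libraries that overlapped and remained above 2iL by 0.51 ± 0.12 (adjusted p = 0.0032). Mvk (-0.72 ± 0.17, adjusted p = 0.00175), Msmo1 (-0.78 ± 0.16, adjusted p = 0.000393) and the sterol carrier Stard4 (-0.67 ± 0.16, adjusted p = 0.00286) fell too. The gene that rose was Ebp, a late sterol isomerase, from 41.0, 35.5, 33.0 and 38.6 CPM to 96.6, 81.6, 122 and 104 CPM (1.44 ± 0.21, adjusted p = 3.49e-06). Of 18 tested genes of serine synthesis and ATF4 response, 1 rose and 1 fell (2 in a fit of the 8 libraries alone). This is 11.1% called, against 17.5% of all genes tested. Asns, the asparagine synthetase, rose from 103, 79.5, 56.2 and 88.9 CPM to 232, 326, 250.2 and 277 CPM (1.75 ± 0.17, adjusted p = 2.21e-09), and Slc7a3, a carrier of arginine and lysine, fell from 74.1, 58.3, 86.7 and 123 CPM to 17.7, 21.4, 15 and 11.2 CPM (-2.41 ± 0.36, adjusted p = 5.45e-06).

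Of 19 mitosis genes 8 fell and none rose, and 5 fell without the 48 h library of experiment 2 or of experiment 4. Over all genes tested 9.13% fell. Of the 8 fallen mitosis genes, only 1 stood below every library of both 48 h and 96 h. Aurka and Plk1, the mitotic kinases, fell from 109 ± 4.73 to 68.4 ± 6.34 CPM and from 248 ± 22 to 182 ± 23.8 CPM (-0.67 ± 0.13 and -0.45 ± 0.11, adjusted p = 0.000433 and 0.00359). Cdkn1a (p21), an inhibitor of cyclin-dependent kinases, read 291, 356, 248 and 247 CPM and then 888, 873, 1314 and 1000.3 CPM. Every returned library exceeded every withdrawn one, and the log2 fold change was 1.86 ± 0.18 (adjusted p = 2.34e-09). Cdkn1a is also a p53 target, and of 16 tested p53 targets it was the 1 that rose, where 8.38% of all genes tested rose. Of 15 G1 cyclins and inhibitors 4 rose (Cdkn1a, Ccnd2, Cdk6 and E2f1) and 2 fell (Ccnd3 and Ccne1). The number that rose was 1 or 2 without the replicate block or without any single library of 5 (48 h of experiments 1 and 3, 48 h + 2iL of experiments 1, 3 and 4), and 1 fell without the block or without any single library of 6 (48 h of experiments 1, 2 and 4, 48 h + 2iL of experiments 2, 3 and 4). Ccne1 (cyclin E1) fell by -0.58 ± 0.12 (adjusted p = 0.000655). Of 10 tested FGF ligands and receptors 1 rose and 2 fell, and 1 gene fell in each of the MYC family (8 tested), the mitochondrially encoded genes (10 tested) and the stress response genes (10 tested), counts that changed by 1 under at least 1 alternative each. Called members were 30% of the tested FGF list, 12.5% of the MYC family and 10% each of the mitochondrial and stress lists. Over all genes tested 17.5% were called.

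Of 15 tested epithelial and cadherin genes 3 rose and 2 fell (33.3%, against 17.5% of all genes tested), with 1 fallen without the 48 h + 2iL library of experiment 1 or without the replicate block. Dsp, a desmosome protein, rose from 4.15, 1.48, 3.66 and 6.13 CPM to 19.2, 23.6, 23.3 and 29.8 CPM (2.68 ± 0.45, adjusted p = 4.41e-05), and Epcam, an epithelial adhesion molecule, fell from 153 ± 17.6 to 65.2 ± 14.9 CPM (-1.19 ± 0.32, adjusted p = 0.00683). Cldn3, a tight junction protein, rose at low levels from 0.494 to 1.23 to 4.19 to 4.57 CPM (2.15 ± 0.62, adjusted p = 0.0124), which did not pass without the 48 h library of experiment 2 (adjusted p = 0.0545). Of 13 tested NOTCH genes 2 rose and 3 fell (38.5%), and 5 fell in a fit of the 8 libraries alone. Hes1, the classical NOTCH target, read 9.85, 5.92, 4.27 and 11 CPM and then 32.4, 41.2, 34.9 and 35.8 CPM (2.21 ± 0.32, adjusted p = 2.98e-06), while Hes6, which antagonises HES1, read 201, 233, 232 and 189 CPM and then 43.5, 35.7, 43.6 and 47.5 CPM (-2.32 ± 0.20, adjusted p = 1.8e-10). For neither gene did the libraries of 48 h and 48 h + 2iL overlap. Of the 2 risen NOTCH genes, 0 stood above every library of both 48 h and 96 h, while all 3 fallen stood below them. The ligand Jag1 rose (1.35 ± 0.30, adjusted p = 0.00153) and the ligand Dll1 fell (-3.33 ± 0.71, adjusted p = 0.000811).

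TFE3 is a transcription factor of lysosomal genes whose entry into the nucleus the folliculin complex blocks during exit from the naive state. Of 12 genes of this group 4 rose and 1 fell. Tfe3 fell from 187, 183, 219 and 201 CPM to 119, 117, 104 and 117 CPM (-0.79 ± 0.18, adjusted p = 0.00129). Its relative Mitf rose from 6.74, 8.89, 8.55 and 17.8 CPM to 32.9, 35.3, 40.3 and 35.4 CPM (1.78 ± 0.28, adjusted p = 1.64e-05), well under the 2iL level of 146, 116, 137 and 82.9 CPM (-1.73 ± 0.23, adjusted p = 1.94e-06). Fnip1, a partner of folliculin, rose from 19.8 ± 1.07 to 47.8 ± 2.74 CPM (1.27 ± 0.18, adjusted p = 3.89e-06). Among lysosomal genes Lamp1, a membrane protein, rose in each experiment, from 395, 453, 284 and 277 CPM to 785, 781, 537 and 506 CPM (0.89 ± 0.10, adjusted p = 4.59e-08), as did the protease gene Ctsd (0.59 ± 0.15, adjusted p = 0.00475).

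Markers of other cell types were looked at as whole lists, and their part in the results above was not tested. The summed level of 18 neural progenitor genes was 92.3 to 115 CPM at 48 h and 136 to 165 CPM after the return, without overlap. Of 15 tested, 1 rose (6.67%, against 8.38% of all genes tested), or 2 with no filter on low counts or in a fit of the 8 libraries alone. The gene that rose was Nkx6-2, a homeobox factor, at 3.11, 3.95, 0 and 3.07 CPM and then 44.5, 47.9, 53.6 and 36.3 CPM (4.12 ± 0.42, adjusted p = 4.8e-09). Nkx6-2 alone rose by about as much as the sum did. It read 110.1, 165, 166 and 129 CPM in 2iL, while the defining markers Sox1 and Pax6 were not called (adjusted p = 0.368 and 0.552). For 12 neuron genes the sum was 349 to 427 and then 453 to 486 CPM, and 3 of 9 tested rose. Map2, a microtubule protein, rose by 2.33 ± 0.37 (adjusted p = 1.79e-05) to 15.8 ± 2.64 CPM, above 2iL at 2.64 ± 1.14 CPM (adjusted p = 6.72e-06) and below the 96 h level of 28.3 ± 8.02 CPM. Gad1, the GABA-making decarboxylase, had no count at 48 h and read 10.1, 11.4, 18.3 and 27 CPM after the return. Dcx, a marker of young neurons, had 1 count in each group. 

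The sum over 10 trophoblast genes was 32.7 to 51.5 CPM and then 105 to 175 CPM, with 2 of 7 tested risen and 2 fallen. The fallen count was 1 without the 48 h + 2iL library of experiment 1, without the replicate block or in a fit of the 8 libraries alone. The risen genes were Cdx2 and Tfap2c, a factor also active in naive cells, at 14, 20.7, 16.5 and 25.1 CPM and then 79.9, 91.7, 102 and 114 CPM (2.35 ± 0.42, adjusted p = 0.000101). Cdx2 and Tfap2c together rose by about as much as the sum did. The trophoblast markers Elf5 and Hand1 had 0 counts after the return, and Gata3 had 8. Primitive endoderm genes summed to 17.2 to 35.3 and then 28.2 to 42.8 CPM, and 1 of 5 tested rose, the laminin gene Lama1 (1.83 ± 0.43, adjusted p = 0.00245). Gata4 and Gata6, which define that lineage, had 3 and 7 counts after the return. Fibroblast genes summed to 126 to 322 and 158 to 264 CPM, groups that overlapped, and none of 7 tested rose. Of 12 genes of the two-cell-like state 8 had no count in any of the 8 libraries, Zscan4c among them. The list summed to 153 to 191 and then 178 to 228 CPM, groups that overlapped. Of 2 tested 1 rose, Eif1a. The risen count was 0 with no filter on low counts. It was also 0 without any single library among 48 h of experiments 1, 2 and 3 and 48 h + 2iL of experiments 1 and 2.

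The genes with the largest changes included several outside the lists. Mobp, a myelin protein gene, read 0, 1.97, 1.83 and 0 CPM and then 30.8, 29.4, 59.8 and 77.7 CPM (5.52 ± 0.67, adjusted p = 1.6e-07), and Pglyrp1, which encodes a peptidoglycan-binding protein, 0.518, 1.48, 0.61 and 0 CPM and then 20.7, 20.6, 25.4 and 28.9 CPM (5.08 ± 0.74, adjusted p = 4e-06). Pdzrn4, a PDZ and RING domain gene, rose to 22.2, 26.5, 104 and 85.6 CPM from 0 to 5.52 CPM, and the libraries of experiments 3 and 4 were the higher ones. All 3 overlapped the 2iL libraries. The falls outside the lists were led by Btbd17, from 27.5, 24.2, 62.9 and 48.4 CPM to 0.506, 0.421, 1.25 and 1.86 CPM (-5.24 ± 0.54, adjusted p = 7.91e-09). Enpp3 and Enpp2, ectoenzymes of 1 family of which Enpp2 (autotaxin) makes lysophosphatidic acid, fell from 64.8, 65.7, 47.6 and 61.9 CPM to 3.03, 2.52, 0.831 and 2.33 CPM and from 41.5, 32.1, 54.9 and 50.9 CPM to 4.55, 1.68, 1.25 and 1.86 CPM, with log2 fold changes of -4.78 ± 0.38 and -4.32 ± 0.38 (adjusted p = 3.34e-11 and 3.14e-10). Neither overlapped. The calcium sensor Doc2a (-4.97 ± 0.52), the calcium channel Ryr3 (-4.79 ± 0.59), Calml4 (-4.31 ± 0.82) and Sned1 (-4.24 ± 0.57) fell as well, with adjusted p = 9.92e-09, 2.39e-07, 0.00023 and 8.71e-07. Doc2a, Ryr3, Sned1, Nkx6-2, Lamp1 and Stat3 overlap a gene on the opposite strand, and whether counting used strand is not given in the sources used here, so reads of a neighbour could be among theirs.

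Against cells never withdrawn, 860 genes were higher in 48 h + 2iL (7.76% of those tested) and 756 lower (6.82%). Of the 929 genes that rose over 48 h, 122 were above 2iL, 139 below it and 668 not called. Of the 1012 that fell, 135 were above 2iL, 123 below it and 754 not called. This comparison shares the 48 h + 2iL libraries with the first one, so the levels stand side by side and a gene that is not called is not shown to be equal. Without the 48 h + 2iL library of experiment 3, the number above 2iL was 571.

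The response to 24 h of 2iL after 96 h without it was set against the response after 48 h, with no library shared. At the threshold 194 genes differed (1.75%), 101 with the higher value after 96 h (0.912%) and 93 with the lower (0.839%), and the total was 105 to 128 without any single library of 6 (48 h of experiment 1, 48 h + 2iL of experiments 2 and 3, 96 h of experiment 4, 96 h + 2iL of experiments 3 and 4). The log2 fold change of Otx2 was -5.54 ± 0.42 after 48 h and -2.10 ± 0.32 after 96 h, and that of Sall2 -3.43 ± 0.35 and -0.54 ± 0.26. The differences were 3.44 ± 0.53 (adjusted p = 0.0003) and 2.89 ± 0.45 (adjusted p = 0.0003). In 96 h + 2iL Otx2 remained at 78.1 ± 97.5 CPM and Sall2 at 67.3 ± 53.1 CPM, both with wide spread. Sfrp1 gave 1.18 ± 0.23 after 48 h and -0.79 ± 0.20 after 96 h (difference -1.97 ± 0.31, adjusted p = 0.0003), Map2 2.33 ± 0.37 and -0.28 ± 0.27 (-2.61 ± 0.46, adjusted p = 0.00144), and Slc2a3 2.26 ± 0.26 and 0.12 ± 0.23 (-2.14 ± 0.34, adjusted p = 0.000411). All 3 were higher at 96 h than at 48 h without overlap of libraries, at means of 127, 28.3 and 122 CPM against 25.9, 3.22 and 29.6 CPM. Hes1 and Hes6 differed in opposite directions, by -2.34 ± 0.42 (adjusted p = 0.00157) and 1.51 ± 0.28 (adjusted p = 0.00184).

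Genes with the higher response after 96 h included Dll1, Msx1, a homeobox gene of limb and neural crest, and Sparcl1, a matrix protein. The difference of Dll1 includes its fall after 48 h, a log2 change of -3.33. Msx1 read 1.97 to 3.05 CPM at 48 h, 1.26 to 2.53 CPM in 48 h + 2iL, 0.917 to 9.59 CPM at 96 h and 15.3 to 45.9 CPM in 96 h + 2iL, so that the last group was the high one. The differences of the responses were 3.38 ± 0.72 for Msx1 (adjusted p = 0.00942), 4.09 ± 0.89 for Dll1 (adjusted p = 0.0111) and 3.99 ± 0.77 for Sparcl1 (adjusted p = 0.00379). On the other side stood Pdzrn4, with 4.58 ± 0.50 after 48 h and 0.76 ± 0.48 after 96 h (difference -3.82 ± 0.73, adjusted p = 0.00326), Cldn3 (-4.31 ± 0.77, adjusted p = 0.00149) and Iglon5, an adhesion molecule of neurons (-3.79 ± 0.83, adjusted p = 0.0117). The differences of Msx1 and Lef1 (1.17 ± 0.25, adjusted p = 0.0111) did not pass without the replicate block, at adjusted p = 0.0731 and 0.0946, and that of Sparcl1 did not pass without the 48 h library of experiment 1 (0.0509). Among the given markers, the difference was -1.59 ± 0.44 for Tfcp2l1 (adjusted p = 0.0547), -2.63 ± 0.86 for Sp5 (adjusted p = 0.115) and -1.57 ± 0.92 for Lefty1 (adjusted p = 0.494), with no call in any case. The posterior genes Cdx2 and T gave log2 fold changes of 7.34 ± 0.64 and 4.32 ± 0.70 after 96 h, with no difference called (adjusted p = 0.961 and 0.524).

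**Figure D5:**
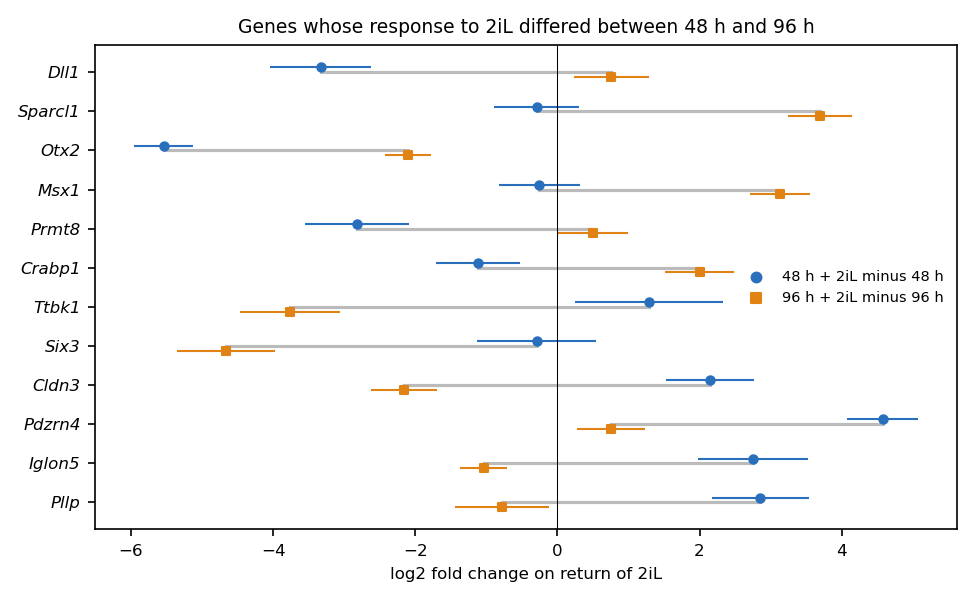
Log2 fold change on return of 2iL after 48 h (blue circles) and after 96 h (orange squares) for the 12 named genes with the largest differences between the responses, with bars of 1 standard error and a grey line joining both. From Dll1 to Crabp1 the value after 96 h is the higher one, by 4.09 for Dll1, and from Ttbk1 to Pllp it is the lower one, by -5.05 for Ttbk1. The differences of Sparcl1, Prmt8, Crabp1, Ttbk1, Six3 and Pllp did not pass in every fit that left out 1 library.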

How the data were processed

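Counts came from 28 libraries of 3′ RNA sequencing. Per the submitters' processing notes, bcl2fastq, STAR 2.6.0a, HTSeq and the mm10 build were used, with no role stated. The deposited files hold raw counts per gene for 31053 genes. The strand setting and the meaning of "unique" in their names are not given in the sources used here. The CPM table the authors deposited for 30386 genes equals CPM from those counts in 28 of 28 columns (tolerance 1e-06) and served only as a check. Library sizes leave out the lines that name no gene, of which reads with no feature were 6.81% to 7.74% and ambiguous reads 0.191% to 0.227% of reads in the 8 libraries compared.

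Genes were kept with edgeR's filterByExpr (at least 10 counts, 15 in total), which left 11080, and scaled by TMM. One quasi-likelihood model (edgeR 4.0.16, R 4.3.3) with group and experiment number as terms was fitted to all 28 libraries, and contrasts were tested two-sided with Benjamini-Hochberg adjustment at 0.05. Standard errors are the absolute log2 fold change divided by the square root of F. The experiment number in the titles was taken as a shared experiment. Deviations from group means correlated at 0.0439 to 0.112 for the 4 same-numbered pairs of 48 h and 48 h + 2iL and at -0.104 to 0.0712 for the 12 others. On simulated data of 11080 genes the fit recovered 60 of 100 genes changed 2-fold and 85 of 100 changed 4-fold, with 6 false calls among the unchanged ones. The simulated libraries shared 1 mean per gene, with no experiment effect, and only 48 h + 2iL was changed. Far fewer genes changed than were called in the real data, so the simulation does not give the error rate there. Intervals of pooled ratios (95%, exact) cover counting error only. Gene positions are from GENCODE M21 and promoters from RefSeq.

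Genes named are Tfcp2l1, Sp5 and Lefty1, the 10 largest rises and 10 largest falls among called genes with a mean of at least 10 CPM in the higher group and no overlap, the 6 largest differences of responses on each side, and members of the lists, some of which are not reported here. The members, lists and tests were chosen with earlier results of these data known. Alternatives were the fit without the block, DESeq2 1.42.0, other scalings and filters, the 8 libraries alone, and each library left out.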

Additional observations from a re-analysis of the deposited data

Results flagged for a closer look

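In 268 groups of 4 libraries, those of 48 h and 48 h + 2iL for the named genes, 14 had a library whose gap to the nearest other one exceeded 0.829 of the range of the group, where chance gives about 1 in 20. In 48 h + 2iL the library of experiment 1 was high for Esrrb (191 CPM, others 152 to 157) and for Ascl2 (1.52 CPM, others 0). The library of experiment 3 of that group was high for Nr5a2 (202 CPM, others 135 to 143) and Nkd1 (20.4 CPM, others 7.15 to 9.31) and low for Spry4 (0 CPM, others 2.33 to 2.53) and the lysosomal factor Tfe3 (104 CPM, others 117 to 119). Etv5 was high in experiment 4 (275 CPM, others 226 to 234), and the germ cell gene Dazl was low in experiment 2 (0.841 CPM, others 4.16 to 4.55). At 48 h a single count put Prdm14, Cdx2 and Hoxb1 at 0.61 CPM in experiment 3 and Sp8 at 0.613 CPM in experiment 4, with 0 in the others. The adhesion molecule Pecam1 was high in experiment 1 of 48 h (16.6 CPM, others 8.55 to 9.87), and Sned1 was low in experiment 4 (14.7 CPM, others 25.7 to 27.5).

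For 29 named genes the response to 2iL after 96 h differed from that after 48 h. Values are log2 differences, 96 h minus 48 h, from edgeR's quasi-likelihood fit, and 14 of them passed in each of 16 fits that left out 1 library. Those 14 were Otx2 (3.44), Sall2 (2.89), Lef1 (1.17), Hes6 (1.51), Dll1 (4.09), Msx1 (3.38), Sfrp1 (-1.97), Map2 (-2.61), Slc2a3 (-2.14), the glycolytic aldolase Aldoc (-2.38), Cldn3 (-4.31), Hes1 (-2.34), Pdzrn4 (-3.82) and Iglon5 (-3.79). The other 15 did not pass in at least 1 of those fits. The difference was lost in 1 fit for Sparcl1 (3.99), in 3 for Pou3f1 (2.6), in 6 each for Dnmt3a (1.11) and the retinoic acid carrier Crabp1 (3.12), and in 7 each for Pcsk6 (-1.85), Slc2a1 (0.78) and the kinase gene Ttbk1 (-5.05). It was lost in 9 fits for Sp8 (-4.14) and Fnip1 (-1.01), in 10 for Nkx6-2 (-2.79), in 11 for Btbd17 (2.75) and Pllp (-3.63), and in 12 for Sox3 (1.07), the arginine methyltransferase gene Prmt8 (3.32) and the forebrain factor Six3 (-4.37). The highest adjusted p was 0.313, for Ttbk1 without the 48 h + 2iL library of experiment 3.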

How the results depend on the processing

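Counts of risen and fallen genes over 48 h stayed within 1.5 times under every alternative tried, from 1472 to 1704 with 1 library left out to 2339 with the 8 libraries alone, against 1941. Without the replicate block 1652 changed, 802 risen and 850 fallen. Under the scalings tried, the median log2 fold change of all genes over 48 h was -0.0024 to 0.0424. Of 117 named genes called, 113 were called under each of the 14 or 15 alternatives that gave them a value, and none reversed. The count of differing responses (194, with 101 higher and 93 lower after 96 h) was 102 (50 and 52) without the replicate block and 414 (164 and 250) with no filter beyond 1 count, and DESeq2 gave 141 lower. With 1 library left out it was 105 to 233, 52 to 107 higher and 53 to 129 lower, lowest without 48 h replicate 1. Genes above 2iL numbered 571 to 790, lowest without 48 h + 2iL replicate 3. The cause of these changes was not tested, and the fits with 1 library left out also had fewer samples. At this depth, genes with few counts, such as Sp8 and Hoxb1, rest on wide intervals. Without the block, 13 named differences of response did not pass, at adjusted p = 0.0504 for Dnmt3a to 0.219 for Sox3.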
